A study of Canis lupus familiaris with 6 samples.

Results

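Transcripts of 10 target genes of the coactivators YAP and TAZ were followed probe set by probe set in canine kidney epithelial cells that form cysts or a flat sheet. The genes are ANKRD1, CCN1, CCN2, AMOTL1, AMOTL2, AXL, CRIM1, NUAK2, AJUBA and PTPN14. Probe sets were taken where the platform annotation gives 1 of these symbols and no other, which yields 17 of 42924 probe sets, for 10 of the 15115 genes with a symbol of their own. The list was drawn up with the 3D minus 2D differences of these same arrays known, so those differences are given as a description. The same holds for each statement that a probe set or gene was called, meaning it passed an adjusted p under 0.05. No p-value is printed for the 10 genes.

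MDCKII is a line of Madin-Darby canine kidney cells that builds polarized epithelia in culture. In the 3D group (3 arrays) MDCKII cells formed cysts on 60 mm dishes coated with 100 µl of Matrigel, an extract of basement membrane, in medium that held 2% Matrigel as well. In the 2D group (3 arrays) MDCKII cells grew as a polarized monolayer on plastic 60 mm dishes without Matrigel. All RNA was taken 36 h after plating, and neither group carries a genetic change in the labels.

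YAP and TAZ (gene names YAP1 and WWTR1) enter the nucleus, bind TEAD transcription factors and switch on genes for growth, adhesion and matrix. The Hippo kinases LATS1 and LATS2 phosphorylate them and hold them in the cytoplasm, and in epithelia cell density, polarity, matrix stiffness and actin tension act on this step. Several targets feed back on the pathway: angiomotins and PTPN14 bind YAP, and AJUBA binds LATS kinases.

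Values, which are not compared between probe sets, are on the log2 scale, 1 for each probe set on each array, and a difference of 1 on this scale is 2-fold. The 4 arrays of replicates 2 and 3 share a scale, with medians of 7.06 to 7.08, while the replicate 1 arrays have medians of 5.26 in 3D and 5.42 in 2D and stand apart from the other 4 (Pearson's r across probe sets 0.861 to 0.872, against 0.982 to 0.997 among the 4). Differences and standard errors are therefore from limma on replicates 2 and 3, with 2 arrays in each group, and the replicate 1 pair adds 1 difference on its own scale. The labels call the replicates biological but name no separate cultures, so the spread between arrays may be partly technical. Of 8 kidney epithelial markers 6, among them EPCAM, KRT8 and CDH16, lay above the upper quartile on all 4 arrays, as did 0 of 12 markers of mesenchymal, white blood and endothelial cells. Below the lower quartile on all 4 arrays lay 2 of 5 mesenchymal, 0 of 4 white blood cell and 1 of 3 endothelial markers. Absence of those cells is not shown by these cuts. None of these 20 markers passed limma at an adjusted p under 0.05. An unadjusted p under 0.05 was found for 3 of them, and for 10072 of all 42924 probe sets. The mean level of the white blood cell markers was 6.95 and 6.97 on the 3D arrays, against 6.68 and 6.76 on the 2D arrays. That of the kidney epithelial markers was higher in 3D too, at 11.04 and 11.18, against 10.92 and 10.97. The mean levels of the mesenchymal and of the endothelial markers overlapped between the groups. Poly-A spike-in controls averaged 9.83 and 8.98 on 3D replicates 2 and 3, against 8.81 and 8.86 on the 2D arrays. Hybridization controls were higher in 3D too, at 11.16 and 11.03, against 10.79 and 10.86. In 2 of 4 probe set pairs for actin and GAPDH, the excess of the 3' end over the 5' end was greater on the 3D arrays of replicates 2 and 3 than on their 2D arrays. The part of these in the differences below was not tested. From bulk RNA, a lower level in every cell and fewer cells with the transcript cannot be told apart.

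Of the 17 probe sets, 10 were lower in 3D at a limma adjusted p under 0.05 and 0 were higher, against 2.96% and 3.65% of all probe sets. At an unadjusted p under 0.05 the counts were 13 lower and 0 higher, while 10072 of all 42924 probe sets had such a p in either direction. The 10 stand for 7 genes, ANKRD1, CCN1, CCN2, CRIM1, NUAK2, AJUBA and PTPN14, while AMOTL1, AMOTL2 and AXL had none. The median log2 difference was -0.93 over the 17 and -0.01 over all probe sets. In 13 of the 17 both 3D arrays lay below both 2D arrays, against 26.7% of all probe sets, and in 4 the groups overlapped. A difference of -1 or less was found for 7 of the 17, against 0.715% of all probe sets. Since the genes were chosen on this contrast, nothing is read from these counts. In all 10 called probe sets the groups did not overlap. Leaving out 1 array, or adding the replicate number as a block, can therefore not turn the sign of their differences. Without any 1 of the 4 arrays, and likewise with the replicate number as a block, 0 of the 17 were called (10 to 12 and 13 at an unadjusted p under 0.05), while the 10 called probe sets stayed below 0.

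**Figure D1:**
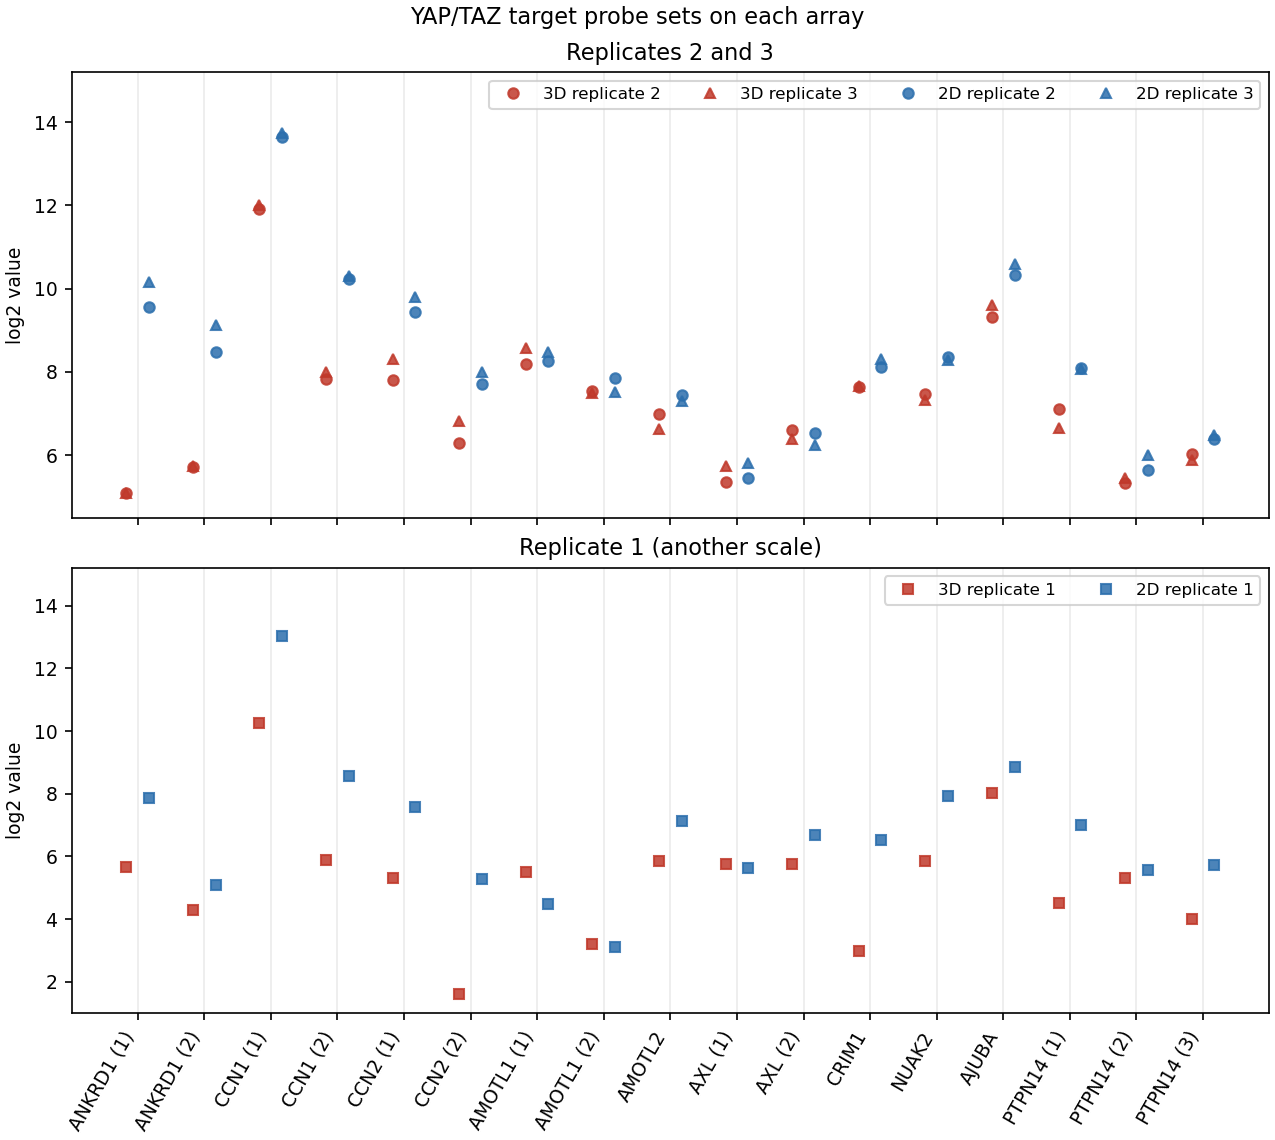
Log2 value of each of the 17 probe sets on each array, with 3D points left of 2D points; replicates 2 and 3 are in the upper panel and replicate 1, on another scale, in the lower one; the probe sets of a gene are numbered in the order in which the text gives their values. The 3D points of ANKRD1, CCN1 and CCN2 lie below the 2D points in the upper panel, and those of AMOTL1 and AXL overlap with them.

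ANKRD1 encodes an ankyrin-repeat protein, first known from heart muscle, that is widely used as a readout of YAP activity. The first of its 2 probe sets (NCBI Gene 477764) had log2 values of 5.08 and 5.09 on 3D replicates 2 and 3, against 9.56 and 10.16 on 2D replicates 2 and 3. The log2 difference was -4.78 (SE 0.197), a 27.4-fold lower value in 3D, and it was the lowest of all 42924 probe sets. Both 3D values lay below the lower quartiles of their arrays (5.64 and 5.67), where an array resolves changes poorly, so that the size of the difference is uncertain. The second probe set had 5.72 and 5.73 in 3D, against 8.49 and 9.13 in 2D, a difference of -3.09 (SE 0.208) and the second lowest of all. On both probe sets the 3D arrays were within 0.01 of each other, whereas the 2D arrays differed by 0.60 and 0.64. The gap between the groups, from the higher 3D value to the lower 2D value, was 4.47 on the first and 2.76 on the second.

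CCN1 and CCN2 encode secreted matricellular proteins that bind integrins and are the most used YAP/TAZ targets beside ANKRD1. CCN1 (NCBI Gene 479967) on its first probe set had log2 values of 11.92 and 12.01 in 3D, against 13.64 and 13.75 in 2D, a difference of -1.73 (SE 0.105). It was 3.32-fold lower in 3D, with both 3D values still above the upper quartiles of their arrays (8.85 and 8.82). On its second probe set the values were 7.83 and 8.01 in 3D, against 10.23 and 10.31 in 2D, a difference of -2.35 (SE 0.112), or 5.10-fold lower, which ranked 5 from the lowest of all probe sets. The 2 CCN1 differences were thus 0.62 apart.

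CCN2 (NCBI Gene 476202) on its first probe set had log2 values of 7.80 and 8.30 in 3D, against 9.45 and 9.79 in 2D. The difference was -1.57 (SE 0.199), or 2.97-fold lower. On the second the values were 6.29 and 6.83 in 3D, against 7.71 and 7.99 in 2D, a difference of -1.29 (SE 0.20), or 2.45-fold lower. Here the 2 probe sets were 0.28 apart, close to the standard errors, and the spread within 3D (0.50 and 0.54) was the widest among the 17 probe sets for that group. Leaving out 1 array moved the first between -1.82 and -1.32 and the second between -1.56 and -1.02.

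Among the targets that feed back on the pathway, the differences ran from -1.21 for a PTPN14 probe set to 0.02 for an AMOTL1 probe set. AJUBA, a LIM-domain scaffold that binds and restrains LATS kinases, had log2 values of 9.33 and 9.61 in 3D, against 10.34 and 10.59 in 2D, on its only probe set (NCBI Gene 480244). The groups did not overlap, and the difference was -0.995 (SE 0.145), or 1.99-fold lower.

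PTPN14, a phosphatase that binds YAP and holds it in the cytoplasm, (NCBI Gene 490293) is read by 3 probe sets that gave different sizes. The first had log2 values of 7.10 and 6.66 in 3D, against 8.10 and 8.08 in 2D, a difference of -1.21 (SE 0.159), or 2.31-fold lower. The second had 5.33 and 5.46 in 3D, against 5.65 and 6.01 in 2D, a difference of -0.44 (SE 0.146) that was -0.26 without 2D replicate 3, and 3 of its 4 values lay below the arrays' lower quartiles. The third had 6.04 and 5.88 in 3D, against 6.38 and 6.48 in 2D, a difference of -0.47 (SE 0.111). The groups did not overlap on any of the 3, and the first alone was called. As the mean of its probe sets PTPN14 differed by -0.71 (SE 0.106) and was called.

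AMOTL1 and AMOTL2 are angiomotin family proteins that bind YAP at cell junctions, and AMOTL2 is itself a standard YAP target. AMOTL2 (NCBI Gene 485669) had log2 values of 6.99 and 6.63 in 3D, against 7.44 and 7.31 in 2D. The groups did not overlap, but the difference of -0.57 (SE 0.146) was not called. AMOTL1 (NCBI Gene 485122) on its first probe set had 8.20 and 8.57 in 3D, against 8.26 and 8.48 in 2D, a difference of 0.02 (SE 0.157). On its second probe set it had 7.54 and 7.49 in 3D, against 7.86 and 7.51 in 2D, a difference of -0.17 (SE 0.140). Both AMOTL1 probe sets overlapped between the groups, and their mean differed by -0.08 (SE 0.0998).

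The kinase and membrane protein targets were split. NUAK2, an AMPK-related kinase that acts on actomyosin, had log2 values of 7.48 and 7.33 in 3D, against 8.37 and 8.29 in 2D, on a single probe set (NCBI Gene 488570). Its difference was -0.93 (SE 0.108), or 1.90-fold lower, with a gap of 0.81 between the groups. CRIM1, a transmembrane protein that binds bone morphogenetic proteins, had 7.63 and 7.67 in 3D, against 8.11 and 8.30 in 2D, on a single probe set (NCBI Gene 475723). Its difference of -0.56 (SE 0.111), or 1.47-fold lower, was the smallest among the 10 called probe sets, and it was not called under trend and robust priors.

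AXL, the receptor tyrosine kinase for the ligand GAS6, showed no separation. Its first probe set (NCBI Gene 484490) had log2 values of 5.35 and 5.75 in 3D, against 5.46 and 5.81 in 2D, a difference of -0.09 (SE 0.181), with 2 of the 4 values below the arrays' lower quartiles. Its second probe set had 6.60 and 6.38 in 3D, against 6.54 and 6.24 in 2D, a difference of 0.10 (SE 0.144). The standard errors exceeded both differences. AXL and AMOTL1 were the 2 genes with a probe set above 0.

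**Figure D2:**
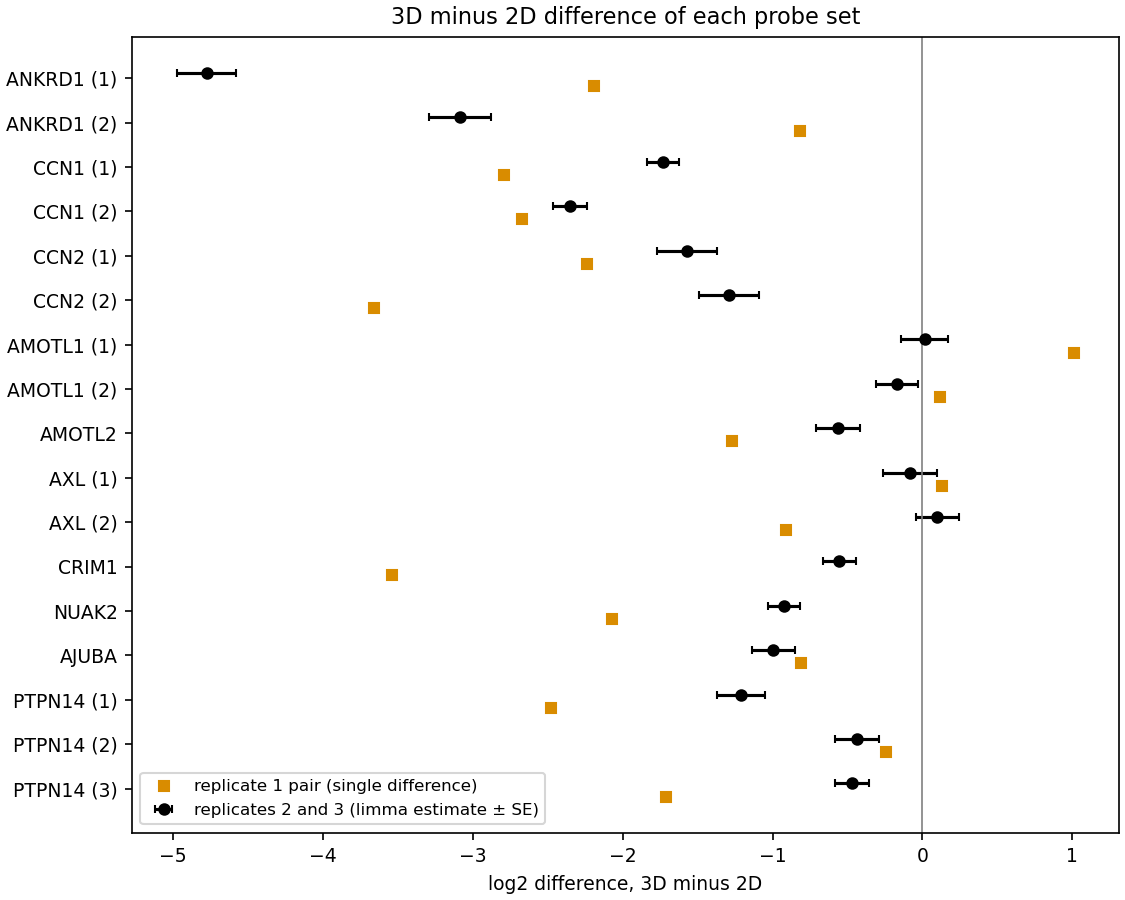
Log2 difference, 3D minus 2D, of each probe set: black points are limma estimates on replicates 2 and 3 with bars of 1 standard error (n = 2 arrays per group), and orange squares are the single differences of the replicate 1 pair. ANKRD1 is lowest on replicates 2 and 3, at -4.78 and -3.09, and CCN2 (2) is lowest in replicate 1, at -3.66.

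Ordered by the lowest probe set of each gene, the differences ran from ANKRD1 through CCN1, CCN2, PTPN14, AJUBA, NUAK2, AMOTL2 and CRIM1 to AMOTL1 and AXL. The neighbours AJUBA and NUAK2, at -0.995 and -0.93, and AMOTL2 and CRIM1, at -0.57 and -0.56, lay within 1 standard error of each other, as did AMOTL1 and AXL. The order of PTPN14 depends on the probe set, since its other 2 probe sets lay above CRIM1. These differences between genes were not tested.

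In the replicate 1 pair 14 of the 17 probe sets were lower in 3D, against 55.9% of all probe sets, and 10 differed by -1 or less, against 19.7%. The median difference was -1.71 over the 17 and -0.14 over all probe sets. ANKRD1 had log2 values of 5.68 in 3D, against 7.87 in 2D, on its first probe set, and 4.28 in 3D, against 5.10 in 2D, on its second. These differences of -2.19 and -0.82 were smaller in size than on replicates 2 and 3. In this pair 5.61% and 24.2% of all probe sets had a difference as low. CCN1 differed by -2.79 and -2.67, and CCN2 by -2.24 and -3.66. The second CCN2 probe set had a 3D value of 1.63, under the lower quartile of its array (3.38), which leaves the size uncertain.

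CRIM1 had log2 values of 3.00 in 3D, against 6.54 in 2D, in replicate 1, and its difference of -3.54 was far larger than the -0.56 of the other arrays. The 3D value again lay below the lower quartile of its array. NUAK2 differed by -2.07, AJUBA by -0.81, AMOTL2 by -1.27 and the PTPN14 probe sets by -2.48, -0.24 and -1.71. Of the 3 values above 0, AMOTL1 contributed 1.01 and 0.12, and AXL 0.13 on its first probe set, against -0.91 on its second. Both values behind the 0.12 of AMOTL1, 3.22 in 3D and 3.10 in 2D, lay under the lower quartiles of their arrays (3.38 and 3.52). All 10 probe sets called on replicates 2 and 3 were below 0 in replicate 1 too, a pattern already known when the genes were listed.

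The differences between replicates of the same group do not enter the 3D minus 2D difference, and they show whether the probe sets of a gene varied together. Of 6 genes with several probe sets, 3 had probe sets that deviated in the same direction in both groups, ANKRD1, CCN1 and CCN2, and 3 had probe sets on both sides of 0 in both groups, AMOTL1, AXL and PTPN14. The share of all genes with several probe sets that deviate alike was not determined, so nothing is read from these counts. For ANKRD1, 2D replicate 3 was above 2D replicate 2 by 0.60 and 0.64. In 3D its probe sets deviated by only 0.01 and 0.01, the last digit of the values, so their shared direction there means little. For CCN2, replicate 3 was above replicate 2 by 0.50 and 0.54 in 3D, and by 0.34 and 0.28 in 2D. CCN1 deviated by 0.09 and 0.18 in 3D, and by 0.11 and 0.08 in 2D.

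The AXL probe sets parted, at 0.40 and -0.22 in 3D, and 0.35 and -0.30 in 2D. Those of AMOTL1 did so at 0.37 and -0.05 in 3D, and 0.22 and -0.35 in 2D. The PTPN14 probe sets deviated by -0.44, 0.13 and -0.16 in 3D, and by -0.02, 0.36 and 0.10 in 2D. AMOTL1 and AXL are also the genes whose 3D and 2D values overlapped, and of the 3 PTPN14 probe sets 1 was called. A link between these traits was not tested. Of the 17 probe sets 9 carry the suffix _s_at, which Affymetrix gives to probe sets that match more than one transcript sequence.

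**Figure D3:**
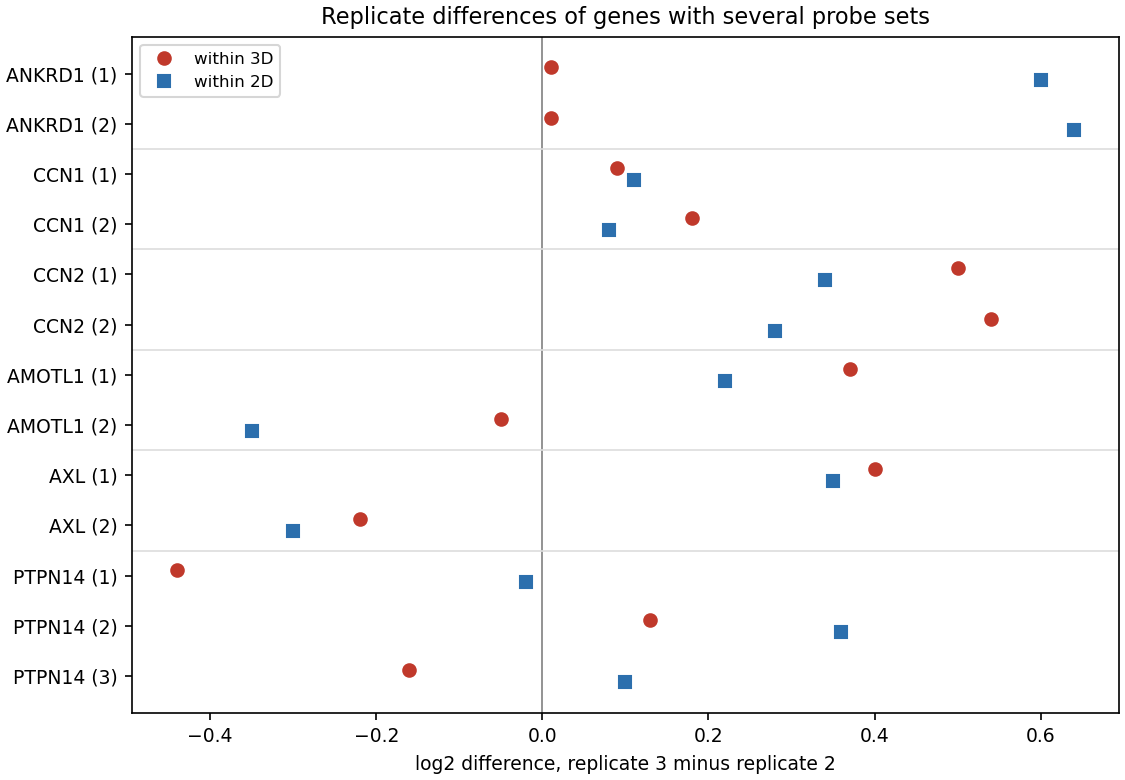
Log2 difference of replicate 3 minus replicate 2 within 3D (red circles) and within 2D (blue squares) for the genes with several probe sets, numbered in the order in which the text gives their values. The probe sets of ANKRD1, CCN1 and CCN2 lie on the same side of 0, and those of AMOTL1, AXL and PTPN14 lie on both sides.

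By rank of the difference from the lowest of 42924, the CCN1 probe sets stood at 37 and 5, CCN2 at 54 and 117, the called PTPN14 probe set at 150, AJUBA at 308, NUAK2 at 394 and CRIM1 at 1649. AMOTL2, which was not called, ranked 1579, just before CRIM1, with a spread within 3D of 0.36 against 0.04 for CRIM1.

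**Figure D4:**
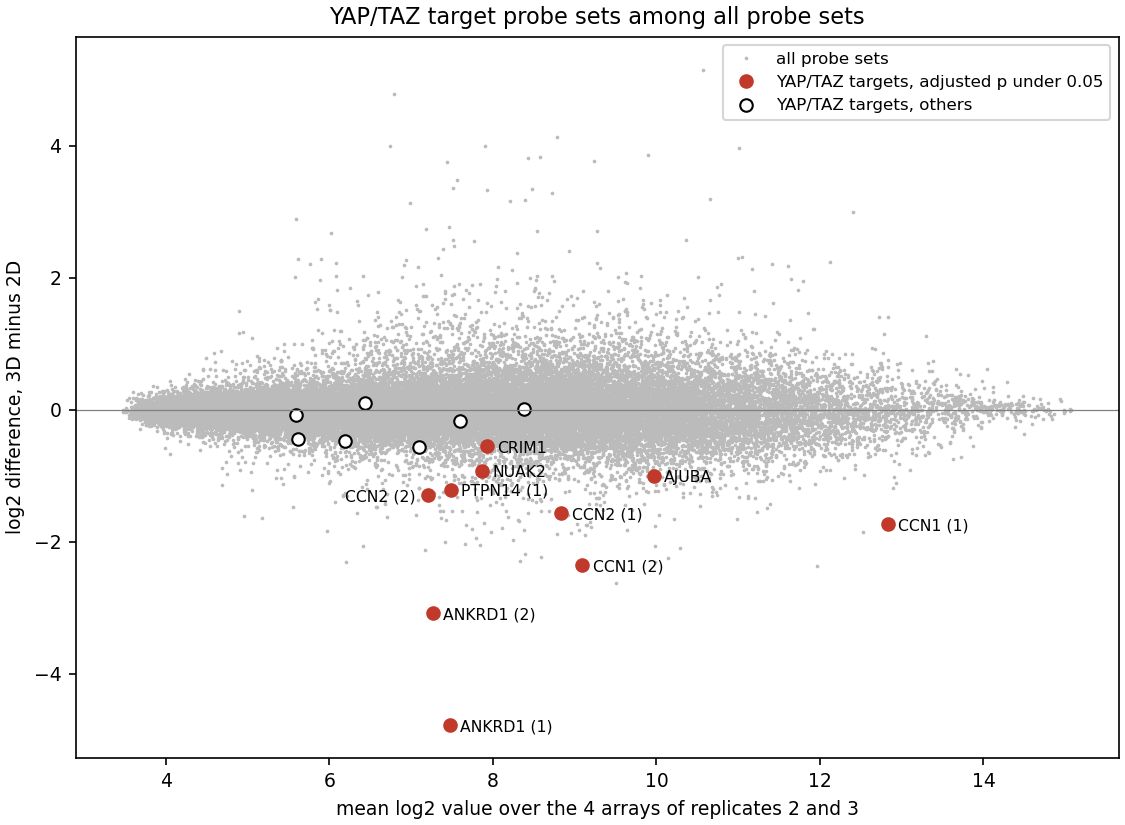
Log2 difference, 3D minus 2D, against the mean log2 value over the 4 arrays of replicates 2 and 3 for all 42924 probe sets (grey), with the 10 called YAP/TAZ target probe sets in red and the other 7 as open circles. The 2 ANKRD1 probe sets lie below every other point, and the uncalled 7 lie within or at the edge of the grey cloud.

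A wider list of 30 other YAP/TAZ targets, of which 25 were measured, was mixed. This list too was drawn up with earlier results of these data known, so its counts and p-values are a description. In limma over all probe sets 8 of the 25 genes fell and 2 rose, against 3.12% and 4.17% of all genes, and 15 did not pass, each gene read by its brightest probe set on average. The median log2 difference was -0.01 for the list and -0.01 for all genes. EDN1, the precursor of the vasoconstrictor endothelin, had log2 values of 10.48 and 11.10 in 3D, against 13.18 and 13.12 in 2D, a difference of -2.36 (SE 0.203, limma adjusted p = 0.00695). The growth factor gene TGFB2 had 6.90 and 7.47 in 3D, against 9.30 and 9.65 in 2D, a difference of -2.29 (SE 0.215, limma adjusted p = 0.00862). In both genes the groups were far apart.

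The transcription factor gene MYC fell by 1.17 on the log2 scale (SE 0.119, limma adjusted p = 0.0104), and F3, which encodes tissue factor, fell by 1.86 (SE 0.215, limma adjusted p = 0.0129). In replicate 1, 21 of the 25 genes were below 0, the 8 that fell among them, against 55.9% of all probe sets. The median difference of the 25 was -1.08, against -0.14 for all probe sets, which are not reduced to 1 per gene. The 2 that rose, named here after their values were seen, were the endocytic adaptor gene DAB2 (0.85, SE 0.10, limma adjusted p = 0.0133) and the integrin gene ITGB5 (1.0, SE 0.117, limma adjusted p = 0.0131), with replicate 1 differences of 0.03 and 0.36. With probe sets averaged per gene 7 of the 10 remained called, and CCDC80, FSTL1 and ITGB5 did not. Like the 10 genes above, the 25 had 0 calls without any 1 of the 4 arrays and with the replicate block (9 to 13 and 10 at an unadjusted p under 0.05).

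Of 22 genes of the Hippo pathway itself, 20 were measured. They were also listed with earlier results of these data known, so the values are a description. In limma 4 fell and 0 rose, against 3.12% and 4.17% of all genes, and 16 did not pass. At an unadjusted p under 0.05 there were 7 lower and 1 higher, while 10072 of all 42924 probe sets had such a p. The median log2 difference was -0.19, against -0.01 for all genes. In replicate 1, 17 of the 20 were below 0, with a median difference of -0.765, against 55.9% and -0.14 for all probe sets. The kinase gene LATS2, which is also a YAP target and stands on both lists, fell by 0.93 on the log2 scale (SE 0.124, limma adjusted p = 0.0169). The kinase cofactor gene MOB1A fell by 0.65 (limma adjusted p = 0.0314), FRMD6, which encodes an upstream FERM-domain protein, by 0.60 (limma adjusted p = 0.0401) and the kinase gene STK4 by 0.61 (limma adjusted p = 0.0478). Of these 4, LATS2 and FRMD6 were also called with probe sets averaged per gene, where LATS1 and WWTR1 replaced the others. The coactivator genes had differences of -0.33 for YAP1 (SE 0.173, limma adjusted p = 0.321) and -0.50 for WWTR1 (SE 0.108, limma adjusted p = 0.0513). The count was 0 without any 1 of the 4 arrays and with the replicate block (4 to 12 and 8 at an unadjusted p under 0.05).

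**Figure D5:**
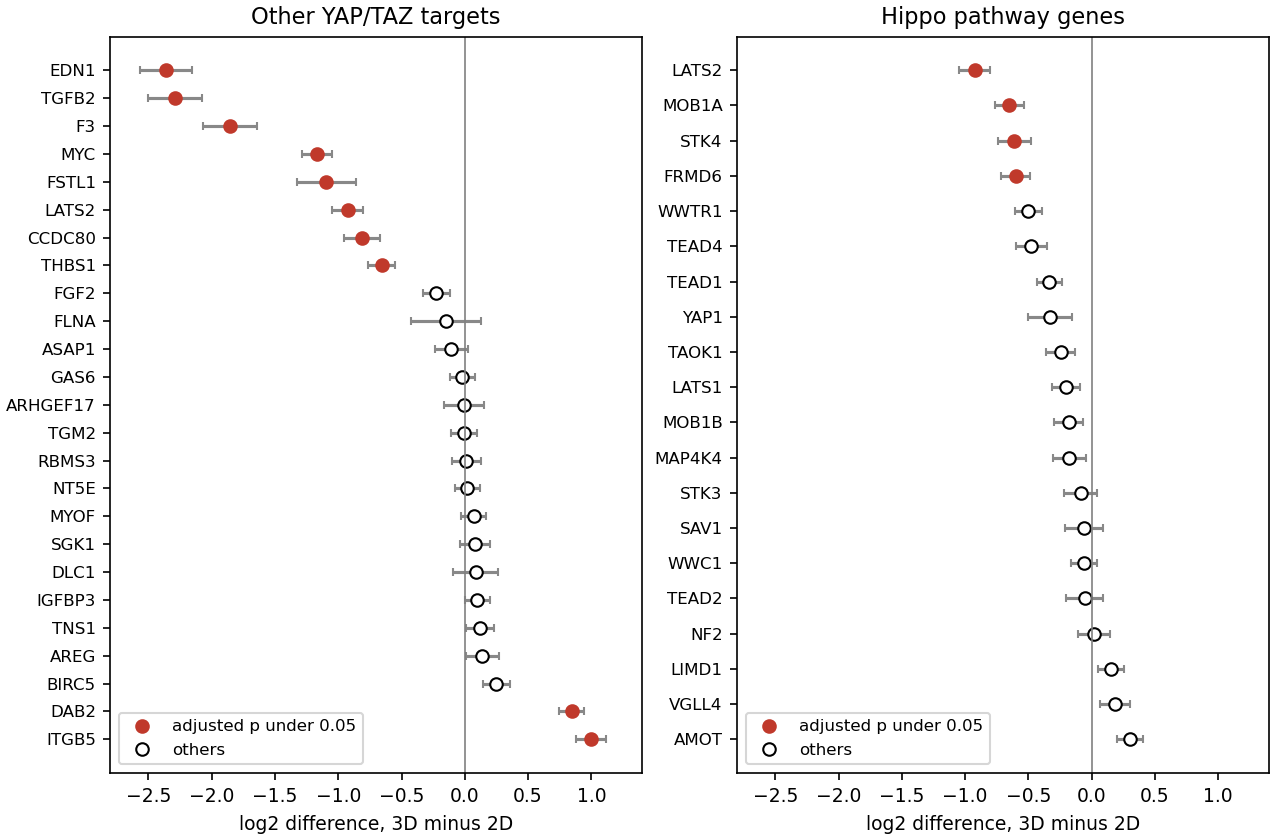
Log2 difference, 3D minus 2D, of other YAP/TAZ targets (left, 25 genes) and Hippo pathway genes (right, 20 genes) on replicates 2 and 3, each by its brightest probe set on average, with bars of 1 standard error (n = 2 arrays per group). Red points passed limma at an adjusted p under 0.05: 8 lower and 2 higher on the left, 4 lower on the right.

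Genes with a profile over the 4 arrays most like that of 3 leading targets were sought by the Euclidean distance between profiles centred on their means, in log2 units. Every probe set was searched, and the closest of each gene was kept. F3 is thus read here by another probe set than above, with a difference of -2.305. TIMP3 is read by 1 probe set for CCN1 and by another for ANKRD1. For the first CCN1 probe set the closest were BMP4 (distance 0.0574), a bone morphogenetic protein, and TM4SF1 (0.0606), a membrane protein, followed by STX11 (0.160), a syntaxin, TIMP3 (0.177), an inhibitor of metalloproteinases, and PMEPA1 (0.209), a TGF-beta feedback inhibitor. BMP4 had log2 values of 8.25 and 8.39 in 3D, against 10.05 and 10.13 in 2D. For the first CCN2 probe set they were VEGFA (0.131), the endothelial growth factor, TIGAR (0.204), a regulator of glycolysis, MTHFD2 (0.227), a mitochondrial folate enzyme, ESM1 (0.247), a secreted proteoglycan, and STX11 (0.25). The matched TIGAR probe set had a difference of -1.425, while another TIGAR probe set differed by -0.64. For the first ANKRD1 probe set no gene was close: EDN1, TGFB2, F3, CSF2 and TIMP3 came nearest, at distances of 2.50 to 2.60. With 4 arrays, 2 per group, this likeness rests mainly on the size of the difference between the groups.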

How the data were processed

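Affymetrix canine arrays (1 colour, biotin-labelled cRNA from 4 µg total RNA, per the labels' protocols) gave the deposited log2 values. RMA and limma are the tools listed, per the submitters' processing notes. No version of them and no genome build is given in the sources used here, so genes are named but not placed, nor is it given how the replicate 1 columns came to be on another scale. Values of replicate 1 went down to -3.32, with 413 below 0 in 3D and 246 in 2D. On replicates 2 and 3 the lowest values were 3.39 to 3.44, with 0 below 0. The precision of the deposited log2 values is limited by the number of arrays, 2 per group in the tests.

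Of 43035 rows, 111 controls were left out. All 10 member genes matched the canine RefSeq gene table of assembly UU_Cfam_GSD_1.0 by Entrez ID, with 0 changed symbols. limma 3.58.1 (R 4.3.3; lmFit, eBayes, two-sided) was fitted over 42924 probe sets with Benjamini-Hochberg adjustment and a threshold of 0.05, with no filter on level, and the code was tested on simulated data. Outside the members and the profile search, a gene was read by its probe set of highest mean over the 4 arrays. The profile search took the closest probe set of each gene. Tables and plots used Python 3.11.15, pandas 2.3.3, numpy 2.4.6 and matplotlib 3.10.9. Members and lists were chosen with earlier results of these data known. Named genes were every member with every probe set, up to 4 called genes per further list by smallest adjusted p, and the 5 nearest profiles of ANKRD1, CCN1 and CCN2 without symbols beginning with LOC. No sequences are shown. Same-numbered arrays of replicates 2 and 3 did not deviate together (correlation of deviations 0.00127). Alternatives were other samples, scalings, priors, a filter on dim probe sets, the replicate block, single arrays left out and probe sets averaged per gene.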

Additional observations from a re-analysis of the deposited data

How the results depend on the processing

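Median centring, trend and robust priors and removal of dim probe sets (mean below the 25th percentile, which left 15 of the 17) gave 10, 9 and 10 called YAP/TAZ target probe sets, all lower in 3D. The calls were lost in every setting that added replicate 1, where the cause was not tested, and in those with fewer residual degrees of freedom. With all 6 arrays in limma the calls were 0 without a block, with the replicate block and after quantile normalization with the block, for the 17 probe sets, the 25 other targets, the 20 Hippo pathway genes and the whole table, where 105, 2723 and 3517 probe sets had an unadjusted p under 0.05. On replicates 2 and 3 with the replicate block, and without any 1 of the 4 arrays, these counts were also 0, against 10, 10, 4 and 2837, with 8325 and 4683 to 10892 of all probe sets at an unadjusted p under 0.05. The labels share only replicate numbers, so the block is given here as an alternative. The median difference of the 17 probe sets was -1.31 with all 6 arrays, with or without the block, and -1.28 after quantile normalization, against -0.93; it stayed between -0.89 and -0.85 without 1 array. No called probe set changed sign in any setting, but the settings left little room for it. In each, both 3D arrays of replicates 2 and 3 lay below both 2D arrays, and replicate 1 was below 0 too. Nothing is therefore read from the unchanged signs. With probe sets averaged per gene, or by the brightest alone, 7 of the 10 genes were called, an alternative chosen after seeing the data. Low signal limits the size of the difference on the first ANKRD1 probe set, and 2 arrays per group limit all calls. The 3D values of the second ANKRD1 probe set, 5.72 and 5.73, lay just above the lower quartiles of their arrays (5.64 and 5.67).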
